A study of Mus musculus with 9 samples.

Results

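Levels of 10 mouse genes that encode feedback inhibitors of the ERK pathway were followed in NIH 3T3 cells with an shRNA against Net or Sap-1. The genes were the dual-specificity phosphatase genes Dusp1, Dusp4, Dusp5 and Dusp6, the Sprouty genes Spry1, Spry2 and Spry4, and the Spred genes Spred1, Spred2 and Spred3. Each was read from the probe set that the platform annotation ties to that symbol alone, the one with the highest mean where there were several, and all 10 were found among the 19935 genes measured this way. NIH 3T3 is a mouse fibroblast line. The NetKD group stably expressed an shRNA against Net (gene Elk3), the SapKD group an shRNA against Sap-1 (gene Elk4), and the Control group carried the pLKO.1 vector. In all 3 groups cells were plated on fibronectin for 2 hours, starved of serum overnight and given bovine serum for 1 hour before lysis. The sample protocols give the serum as 10% and the series text as 20%, and no array came from cells without it, so the induction of these genes by serum was not measured. Each group held 3 biological replicates with 1 Affymetrix Mouse Gene 1.0 ST array each. The labels do not say whether a group is 1 stable line or several, or a clone or a pool, so p-values cover the spread between these samples and not that between independently made lines.

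Serum growth factors activate receptor tyrosine kinases, which signal through RAS, RAF and MEK to the kinase ERK. ERK phosphorylates ternary complex factors such as Net and Sap-1, which sit with serum response factor (SRF) on CArG boxes and regulate early response genes. Among the early targets of ERK signalling are its own inhibitors. The DUSP proteins remove the activating phosphates from MAP kinases, and the Sprouty and Spred proteins, related through a cysteine-rich domain, restrain signalling between the receptors and RAF. In fibroblasts this loop limits how long ERK stays active after serum.

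RefSeq promoter sequence was used for 8 of the 10 genes, and those of Dusp4 and Spry4 were not analysed here. The 250 bases before the annotated start were searched on both strands for 4 motifs, namely the CArG box, the cAMP response element TGACGTCA, the AP-1 element TGACTCA and the ETS element CCGGAAGT. Among all 32841 RefSeq promoters, 1.47% held a CArG box, 1.55% the cAMP response element, 4.46% the AP-1 element and 2.88% the ETS element in that window. Matches were found in 2 of the 8 genes. Dusp5 is shown because its window held 2 adjoining CArG boxes, from base 82 to base 63 before the start, and Dusp1 because it held a cAMP response element, from base 143 to base 136. Spry1 is shown as the member with the largest difference in the array data, and none of the 4 motifs was found in its window. Capitals mark the motifs, and the sequences run 5′ to 3′ along the gene's strand in build GRCm38.p6.
Dusp5 promoter, chr19:53528895-53529144, plus strand: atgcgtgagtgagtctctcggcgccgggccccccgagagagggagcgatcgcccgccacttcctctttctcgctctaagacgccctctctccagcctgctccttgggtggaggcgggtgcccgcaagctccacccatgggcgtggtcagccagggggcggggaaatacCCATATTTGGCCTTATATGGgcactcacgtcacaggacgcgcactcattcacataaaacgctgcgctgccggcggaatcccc
Dusp1 promoter, chr17:26508473-26508722, minus strand: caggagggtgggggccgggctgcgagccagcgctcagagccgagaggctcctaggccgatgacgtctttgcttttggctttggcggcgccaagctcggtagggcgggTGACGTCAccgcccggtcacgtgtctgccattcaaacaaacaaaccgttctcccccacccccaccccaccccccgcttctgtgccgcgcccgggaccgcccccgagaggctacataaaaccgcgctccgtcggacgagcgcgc
Spry1 promoter, chr3:37639697-37639946, plus strand: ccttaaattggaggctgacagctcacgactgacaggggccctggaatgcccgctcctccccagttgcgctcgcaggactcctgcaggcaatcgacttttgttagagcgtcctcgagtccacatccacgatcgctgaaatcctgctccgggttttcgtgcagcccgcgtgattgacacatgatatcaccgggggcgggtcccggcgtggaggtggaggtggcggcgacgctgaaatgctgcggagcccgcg
A match describes these letters and is not evidence that a factor binds there.

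All values are log2 levels made by the authors with RMA, which normalises arrays to each other, and a difference of 1 on this scale is a doubling. Differences were tested with limma in 1 fit over the 9 arrays, and a gene was said to rise or fall where the p-value, adjusted by Benjamini-Hochberg over all 19935 genes, was under 0.05. Array medians ran from 7.47 to 7.54, and arrays correlated at 0.9981 to 0.9992 within groups and 0.9879 to 0.9947 between groups. Elk3 read 11.06, 11.08 and 11.1 in NetKD cells, 11.37, 11.4 and 11.38 in SapKD cells and 11.48, 11.52 and 11.52 in Control cells, which is 25.5% below Control with the Net shRNA. Elk4 read 10.58, 10.66 and 10.64 in NetKD cells, 9.5, 9.54 and 9.55 in SapKD cells and 11.03, 11.05 and 11.13 in Control cells, which is 65.5% below Control with the Sap-1 shRNA and 26.4% below it with the Net shRNA. Elk3 was also lower in SapKD cells, by 8.23% (limma adjusted p = 0.023), so that the mRNA of both factors was lower in both knockdowns. The 9 fibroblast markers averaged at least 10.95 in every group, summing on the linear scale to 70167 to 72622 in NetKD, 65188 to 66726 in SapKD and 74094 to 75127 in Control arrays. Of the fibroblast markers, Pdgfra (-0.26), Pdgfrb (-0.14) and Fn1 (-0.13) were called lower than Control in NetKD cells. In SapKD cells Pdgfra (-1.74), Col3a1 (-0.34), Thy1 (-0.32) and Col1a1 (-0.13) were called lower. No fibroblast marker was called higher in either knockdown. The mean of 10.95 was that of Pdgfra in SapKD cells, against 12.69 in Control cells. Macrophage, epithelial, muscle and adipocyte markers averaged at most 8.61 in any group. Endothelial markers, with group means of 6.12 to 8.58, summed to 802 to 845 in NetKD, 566 to 606 in SapKD and 519 to 546 in Control arrays. Tek rose by 1.84 in NetKD and fell by 0.3 in SapKD cells, where Cdh5 rose by 0.84. The other endothelial markers, Pecam1, Kdr and Tie1, passed against Control in neither knockdown. Of the macrophage, epithelial, muscle and adipocyte markers, Cdh1 (0.38), Des (0.38), Fabp4 (0.37) and Cd68 (0.23) rose in NetKD cells. In SapKD cells Des rose by 0.63 and Cd68 fell by 0.23. All other markers of these 4 lists passed against Control in neither knockdown. RMA gives no value of 0 to any gene, and the part of such markers in the results below was not tested.

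**Figure D1:**
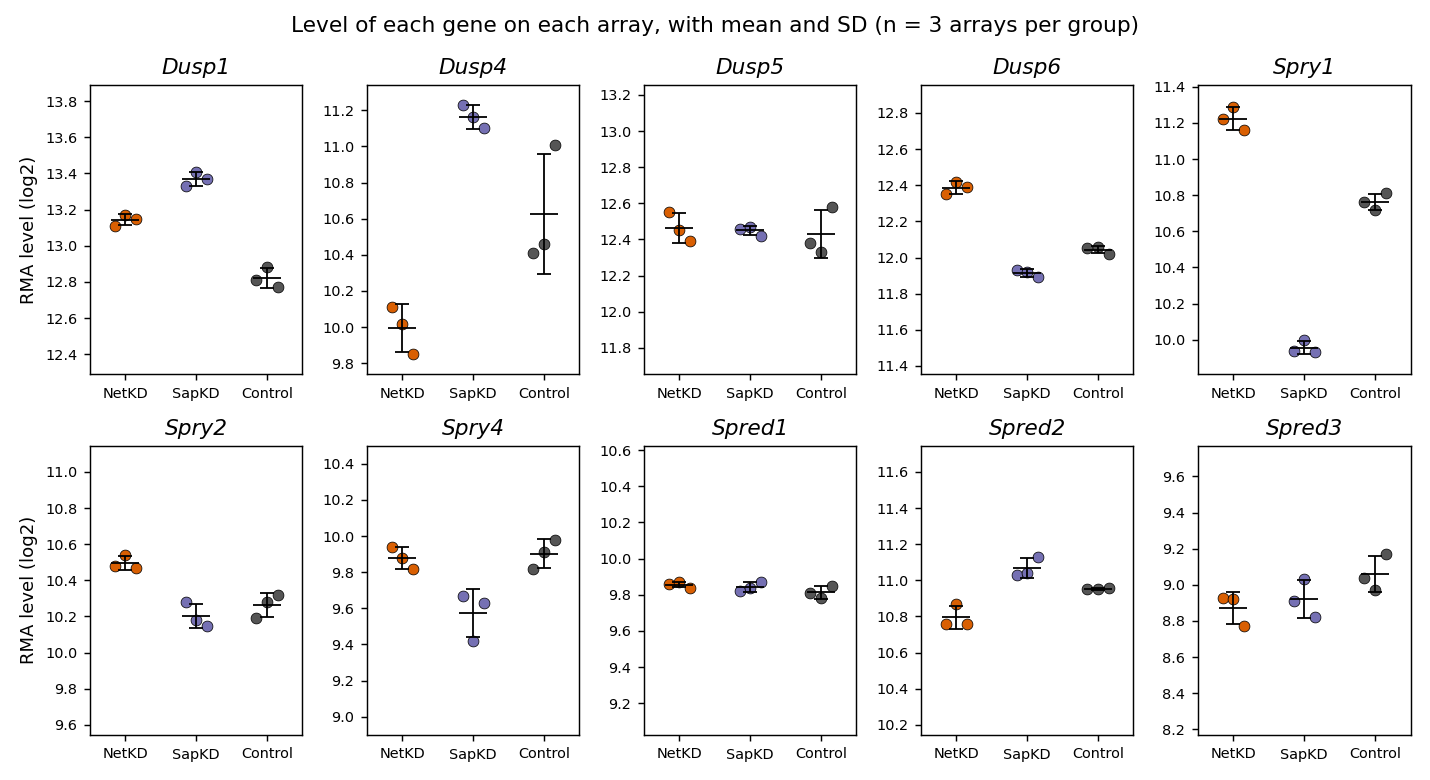
Level of the 10 feedback inhibitor genes on each of the 9 arrays (log2, 1 panel per gene, each panel spanning the same log2 range around its own centre). Points are arrays, bars are the mean and SD of the 3 arrays of a group. Spry1 lay at 11.16 to 11.29 in NetKD, 9.93 to 10 in SapKD and 10.72 to 10.81 in Control cells, while Spred1 and Dusp5 overlapped in all groups.

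The nuclear phosphatase genes behaved differently from each other. Dusp1, whose product acts on the stress kinases JNK and p38 as well as on ERK, was higher in both knockdowns. It read 13.11, 13.17 and 13.15 in NetKD cells, 13.33, 13.41 and 13.37 in SapKD cells and 12.81, 12.88 and 12.77 in Control cells. No array of one group overlapped with those of another, and SapKD arrays were the highest. Dusp1 rose by 0.32 in NetKD (SE 0.04, limma adjusted p = 0.00027) and by 0.55 in SapKD cells (SE 0.04, adjusted p = 3.2e-06), that is by 25% and 46.1% over Control. Set against each other directly, NetKD lay 0.23 below SapKD cells (SE 0.04, adjusted p = 0.0022). Both comparisons with Control use the same 3 Control arrays.

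Dusp4, which encodes another nuclear MAP kinase phosphatase, was lower with the Net shRNA and higher with the Sap-1 shRNA. It read 10.11, 10.02 and 9.85 in NetKD cells, 11.23, 11.16 and 11.1 in SapKD cells and 10.41, 10.46 and 11.01 in Control cells. The groups did not overlap, but Control replicate 3 stood close to the SapKD arrays and away from the other Control arrays, so that the Control SD of 0.33 was the widest of any member in any group. Dusp4 fell by 0.63 in NetKD cells (SE 0.13, limma adjusted p = 0.0046), a level 35.6% below Control, and rose by 0.54 in SapKD cells (SE 0.13, adjusted p = 0.0093), 45.1% above it. Between the knockdowns, where Control arrays do not enter the difference, NetKD lay 1.17 below SapKD (SE 0.13, adjusted p = 4.8e-05), a level 55.6% lower. Without Control replicate 3 the difference was -0.44 in NetKD (adjusted p = 0.0026) and 0.73 in SapKD cells (adjusted p = 8.3e-05). The expressed genes next to Dusp4 on its chromosome were shifted by 0.36 in NetKD relative to Control, opposite to Dusp4 itself, and with the median of its 50 neighbours taken off Dusp4 lay at -1 in NetKD cells (adjusted p = 0.00021). The same Control array gave the highest of the 3 Control values in 8 of the 10 genes.

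Dusp5 and Dusp6 both encode phosphatases with a strong preference for ERK, Dusp5 in the nucleus and Dusp6 in the cytoplasm. Dusp5, the gene with the adjoining CArG boxes printed above, read 12.55, 12.45 and 12.39 in NetKD cells, 12.46, 12.47 and 12.42 in SapKD cells and 12.38, 12.33 and 12.58 in Control cells. Its arrays overlapped between all groups. The difference was 0.04 in NetKD (95% interval -0.11 to 0.18, limma adjusted p = 0.78) and 0.02 in SapKD cells (-0.12 to 0.17, adjusted p = 0.84), so that changes within those bounds could not be told from none. NetKD and SapKD differed by 0.01 (-0.13 to 0.16, adjusted p = 0.92).

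Dusp6 was the opposite of Dusp4 in direction. It read 12.35, 12.42 and 12.39 in NetKD cells, 11.93, 11.92 and 11.89 in SapKD cells and 12.05, 12.06 and 12.02 in Control cells. The 3 groups stood apart with SDs of 0.02 to 0.03. Dusp6 rose by 0.34 in NetKD (SE 0.04, limma adjusted p = 6.8e-05), a level 27% above Control. In SapKD cells it fell by 0.13 (SE 0.04, adjusted p = 0.021), a level 8.67% below Control, a small change whose call was lost when arrays were centred on their medians (-0.11, adjusted p = 0.09) and when single arrays were left out (adjusted p = 0.052 without SapKD replicate 2, 0.058 without SapKD replicate 3, 0.055 without Control replicate 1 and 0.068 without Control replicate 2). NetKD lay 0.48 above SapKD cells (SE 0.04, adjusted p = 2.8e-06), a level 39% higher.

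The Sprouty genes held the largest difference of all members. Spry1, an inhibitor of growth factor receptor signalling to RAS and ERK, read 11.22, 11.29 and 11.16 in NetKD cells, 9.94, 10 and 9.93 in SapKD cells and 10.76, 10.72 and 10.81 in Control cells. Every NetKD array was above, and every SapKD array below, all Control arrays. Spry1 rose by 0.46 in NetKD (SE 0.05, limma adjusted p = 4.1e-05), 37.2% above Control, and fell by 0.81 in SapKD cells (SE 0.05, adjusted p = 2.4e-07), 42.9% below Control. NetKD exceeded SapKD by 1.26 (SE 0.05, adjusted p = 5.7e-09), a 2.4-fold difference that only 1.17% of all genes matched or passed in size. After subtraction of the median of its 50 neighbours this difference was 1.15 (adjusted p = 1.6e-08).

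Spry2, a close relative of Spry1, read 10.48, 10.54 and 10.47 in NetKD cells, 10.28, 10.18 and 10.15 in SapKD cells and 10.19, 10.28 and 10.32 in Control cells. NetKD arrays were above all others, and SapKD and Control arrays overlapped. Spry2 rose by 0.23 in NetKD (SE 0.05, limma adjusted p = 0.0056) and lay at -0.06 in SapKD cells (95% interval -0.17 to 0.05, adjusted p = 0.4). The direct difference of NetKD over SapKD was 0.29 (SE 0.05, adjusted p = 0.00091). Spry4, which encodes a further Sprouty inhibitor of the pathway, read 9.94, 9.88 and 9.82 in NetKD cells, 9.67, 9.42 and 9.63 in SapKD cells and 9.82, 9.91 and 9.98 in Control cells. Here SapKD arrays were the lowest, and NetKD and Control arrays overlapped. Spry4 lay at -0.02 in NetKD (95% interval -0.17 to 0.13, adjusted p = 0.87) and fell by 0.33 in SapKD cells (SE 0.07, adjusted p = 0.0034), 20.3% below Control. NetKD exceeded SapKD by 0.3 (SE 0.07, adjusted p = 0.0057). All 3 Sprouty genes were thus higher in NetKD than in SapKD cells, although each differed from Control in its own way.

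The Spred proteins hold RAS signalling down at the membrane, where Spred1 is known to recruit neurofibromin. Spred1 read 9.86, 9.87 and 9.84 in NetKD cells, 9.82, 9.84 and 9.87 in SapKD cells and 9.81, 9.78 and 9.85 in Control cells. Its groups overlapped, with differences of 0.04 in NetKD (95% interval -0.04 to 0.13, limma adjusted p = 0.5) and 0.03 in SapKD cells (-0.05 to 0.11, adjusted p = 0.63). NetKD and SapKD differed by 0.01 (-0.07 to 0.1, adjusted p = 0.84).

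Spred2 was measured by 2 probe sets that went opposite ways with the Net shRNA. The brighter one, 10374455, read 10.76, 10.87 and 10.76 in NetKD cells, 11.03, 11.04 and 11.13 in SapKD cells and 10.95, 10.95 and 10.96 in Control cells, without overlap. It was lower by 0.16 in NetKD (SE 0.05, limma adjusted p = 0.03) and lay at 0.11 in SapKD cells (SE 0.05, adjusted p = 0.1). The other, 10374464, averaged 9.69 ± 0.11 in NetKD, 9.81 ± 0.06 in SapKD and 9.48 ± 0.1 in Control cells (SD, n = 3), and in a fit of all 21780 probe sets it was higher by 0.21 in NetKD (SE 0.07, adjusted p = 0.047) and by 0.33 in SapKD cells (SE 0.07, adjusted p = 0.0035). The mean of both probe sets differed by 0.03 in NetKD (adjusted p = 0.77) and by 0.22 in SapKD cells (adjusted p = 0.0028). The fall of the brighter one in NetKD cells was also lost when single arrays were left out (adjusted p = 0.071, 0.075 and 0.075 without Control replicates 1, 2 and 3, 0.085 without NetKD replicate 1 and 0.11 without NetKD replicate 3). A direction for the Spred2 transcript in NetKD cells therefore depended on the probe set. NetKD was lower than SapKD by both, at -0.26 (adjusted p = 0.0011) for the brighter and -0.12 (SE 0.07, adjusted p = 0.24 over all probe sets) for the other, and only the first passed.

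Spred3 read 8.93, 8.92 and 8.77 in NetKD cells, 8.91, 9.03 and 8.82 in SapKD cells and 9.04, 8.97 and 9.17 in Control cells. NetKD arrays were all below Control arrays, while SapKD arrays overlapped with both. The difference from Control was -0.19 in NetKD (95% interval -0.34 to -0.03, limma adjusted p = 0.081) and -0.14 in SapKD cells (-0.29 to 0.01, adjusted p = 0.17), and neither passed. The first passed with array weights (-0.22, adjusted p = 0.034), after subtraction of the neighbours' median (-0.22, adjusted p = 0.032) and with dimmer genes left out (-0.19, adjusted p = 0.04), and the second after the same subtraction (-0.19, adjusted p = 0.049). NetKD and SapKD differed by -0.05 (-0.2 to 0.11, adjusted p = 0.7).

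**Figure D2:**
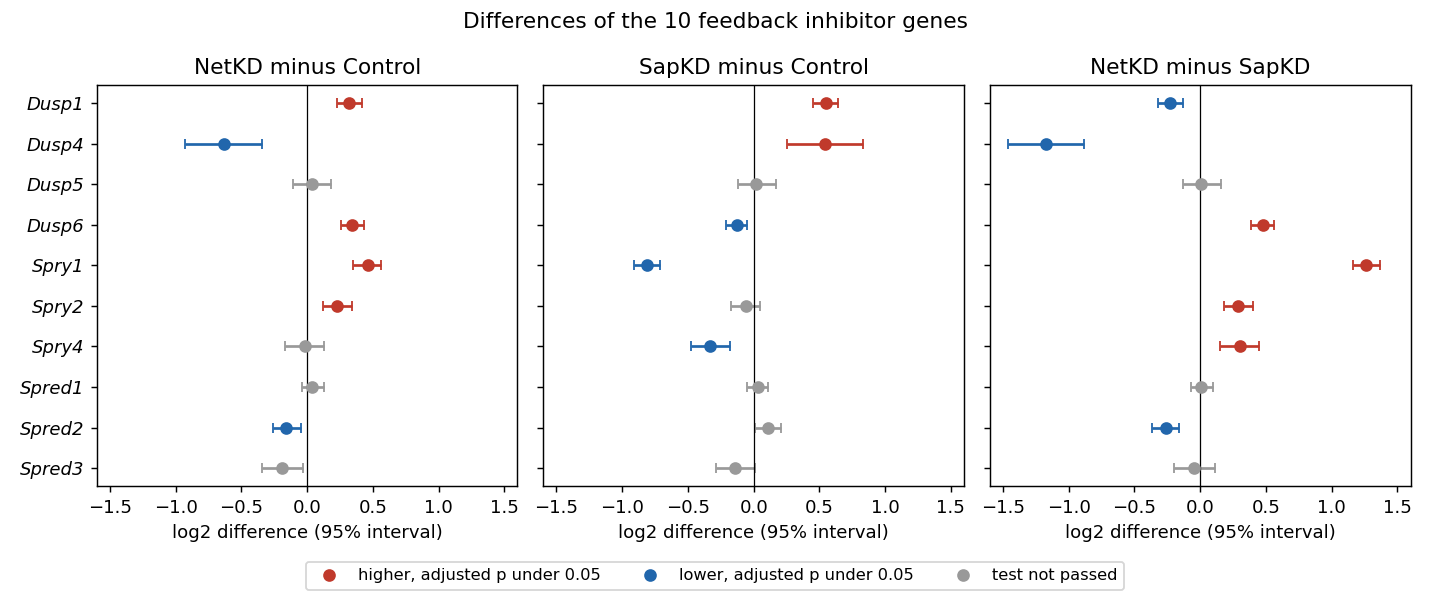
Differences of the 10 genes in log2 units with 95% intervals for NetKD minus Control, SapKD minus Control and NetKD minus SapKD. Colour shows the limma call at an adjusted p under 0.05. Dusp4 and Spry1 lie on opposite sides of 0 in each panel, and Dusp5 and Spred1 lie near 0 in all of them.

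In NetKD cells Dusp1, Dusp6, Spry1 and Spry2 rose and Dusp4 and the brighter Spred2 probe set fell, which made 4 of 10 members higher and 2 lower, against 13.4% and 10.2% of all genes tested. With arrays centred on their medians the split was 4 higher and 1 lower, as the Spred2 call was lost (-0.15, adjusted p = 0.065). In SapKD cells Dusp1 and Dusp4 rose and Dusp6, Spry1 and Spry4 fell, which made 2 higher and 3 lower, against 15.8% and 13.9% of all genes. That split was 2 higher and 2 lower with arrays centred on their medians, where Dusp6 was lost, and 3 higher and 3 lower with probe sets of 1 gene averaged, where Spred2 was gained. Between the knockdowns 4 members were higher in NetKD (Dusp6, Spry1, Spry2 and Spry4) and 3 lower (Dusp1, Dusp4 and Spred2), against 14.2% and 13.3% of all genes. All 10 members have a mean at or above the median of all genes, and among such genes 47.4% were called in NetKD, 54.5% in SapKD and 52% between the knockdowns. Those shares come from a fit of such genes alone, and the members' 6, 5 and 7 of 10 from the fit of all genes. In the fit of such genes alone Spred3 was also called lower in NetKD cells. The counts and shares are thus not from the same fit, and no excess of called members is read from them. Array values of the compared groups were fully separate for 7 members in NetKD, 6 in SapKD and 7 between the knockdowns, where this held for 34.3%, 41% and 37.4% of all genes. The median difference of the members was 0.04 in NetKD and -0.02 in SapKD, against 0 and -0.02 over all genes, and the median size of the difference was 0.21 and 0.14, against 0.07 and 0.09. The members had thus no common direction, and they lie on 10 different chromosomes in RefSeq. Separation of arrays and size of the difference were set against all genes, dimmer ones included. They were not compared with genes at or above the median level alone, so no excess of the members is read from them.

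Other genes of the pathway were counted from lists drawn up by their known roles, with earlier results of these data known, and their counts stand beside 13.4% higher and 10.2% lower among all genes in NetKD and 15.8% and 13.9% in SapKD cells. Among genes at or above the median level, in a fit of those genes alone, the share called either way was larger, at 47.4% in NetKD and 54.5% in SapKD cells. The lists also hold dimmer genes, such as Mapk10 with a Control mean of 5.84. How many listed genes reach the median level was not counted, so those shares are not a like comparison for the lists. Among 6 further MAP kinase phosphatase genes, 2 fell and none rose in NetKD, namely Dusp16 (fell by 0.53, SE 0.07) and Dusp10 (fell by 0.26, SE 0.05), with limma adjusted p = 0.00015 and 0.0028. In SapKD cells Dusp10, whose product acts mainly on JNK and p38, fell by 1.46 (SE 0.05, adjusted p = 4.5e-09), more than any of the 10 members, while Dusp8 rose by 0.86 (SE 0.05) and Dusp9 by 0.47 (SE 0.05). Dusp10 read 11.2, 11.14 and 11.14 in NetKD cells, 9.97, 9.99 and 9.92 in SapKD cells and 11.32, 11.43 and 11.5 in Control cells, without overlap.

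Of 16 other inhibitors of the pathway, 3 rose and 4 fell in NetKD, and none rose and 5 fell in SapKD cells. Spry3, the remaining Sprouty gene, rose by 0.29 in NetKD (SE 0.05, limma adjusted p = 0.0022) and fell by 0.59 in SapKD cells (SE 0.05, adjusted p = 8e-06), so that it went the same way as Spry1 in both. Il17rd, the gene of the transmembrane inhibitor Sef, fell by 0.57 in NetKD (SE 0.07, adjusted p = 9.3e-05) and by 1.36 in SapKD cells (SE 0.07, adjusted p = 6e-08). It read 8.46, 8.59 and 8.51 in NetKD cells, 7.62, 7.77 and 7.8 in SapKD cells and 8.99, 9.09 and 9.2 in Control cells. Rasa3, a RAS GTPase activating protein gene, rose by 0.78 and the adaptor gene Dok1 by 0.46 in NetKD, and Pea15a, which encodes a protein that holds ERK in the cytoplasm, fell by 0.42 in SapKD cells. Of 9 measured regulators and partners of Sprouty, 2 fell in NetKD and 3 in SapKD cells and none rose. Ptpn11, the gene of the phosphatase SHP2, fell by 0.37 in NetKD (SE 0.04) and by 0.18 in SapKD cells (SE 0.04), and the Sprouty-binding kinase gene Tesk1 fell by 0.25 in SapKD cells.

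Receptors and kinases upstream of the inhibitors were also compared. Of 10 receptor tyrosine kinase genes, 2 rose and 3 fell in NetKD, and none rose and 5 fell in SapKD cells. In SapKD cells Pdgfra, a receptor for platelet-derived growth factor, fell by 1.74 (SE 0.06, limma adjusted p = 4.2e-09) and the fibroblast growth factor receptor genes Fgfr1 and Fgfr2 by 0.87 and 0.5 (SE 0.04 each). In NetKD cells Egfr rose by 0.56 (SE 0.06, adjusted p = 7.5e-05), while Fgfr2 fell by 0.41 and Pdgfra by 0.26. Of 17 measured genes of the RAS, RAF, MEK and ERK core, 1 rose and 6 fell in NetKD, among them Mras and Rras2 (fell by 0.26 each) and Sos1 (fell by 0.35). In SapKD cells 1 rose and 5 fell, with the MEK gene Map2k1 up by 0.4 (SE 0.05), the adaptor gene Shc1 down (fell by 0.54, SE 0.04) and the scaffold gene Ksr1 down (fell by 0.21). Of 10 kinase genes of the JNK and p38 branches, 2 rose and 2 fell in NetKD, and 1 rose and 2 fell in SapKD cells, with Map2k6 up by 0.55 in NetKD and down in SapKD cells (fell by 0.37).

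Among other transcripts that respond to ERK, called changes went in both directions. Of 13 such genes, 1 rose and 2 fell in NetKD, and 5 rose and 2 fell in SapKD cells. In NetKD that is near the share of all genes called. In SapKD cells 15.8% of all genes rose and 13.9% fell. Among genes at or above the median level 47.4% were called in NetKD and 54.5% in SapKD cells. Those shares come from a fit of such genes alone, unlike the counts, and no excess is read from the counts. Egr1, Fos, Fosl1, Myc, Ier2 and Ier3 passed against Control in neither. Their limma adjusted p ran from 0.075 (Myc) to 0.26 (Egr1 and Fos) in NetKD and from 0.06 (Fos) to 0.57 (Ier3) in SapKD cells. Set against each other directly, NetKD exceeded SapKD for Fos (0.39, limma adjusted p = 0.005), Myc (0.25, 0.0016) and Ier3 (0.14, 0.039). Egr1, Fosl1 and Ier2 did not pass there. Of the 13 genes, 5 were higher and 4 lower in NetKD than in SapKD cells, against 14.2% and 13.3% of all genes. Among genes at or above the median level, fitted alone, 52% were called. Ccnd1, the cyclin D1 gene, fell by 0.23 in NetKD (SE 0.04, limma adjusted p = 0.0016) and rose by 0.78 in SapKD cells (SE 0.04, adjusted p = 9.8e-08). Etv1 fell by 0.2 in NetKD (SE 0.05) and by 0.47 in SapKD cells (SE 0.05), whereas Etv4, another gene of that family of ETS factors, rose by 0.2 (SE 0.06) and 0.28 (SE 0.06). Epha2, a receptor gene, rose by 0.43 in SapKD cells (SE 0.05). Srf itself lay at 0.01 in NetKD (adjusted p = 0.96) and fell by 0.19 in SapKD cells (SE 0.05, adjusted p = 0.0085), and Elk1 passed in neither (0.02 and -0.08, adjusted p = 0.85 and 0.27).

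**Figure D3:**
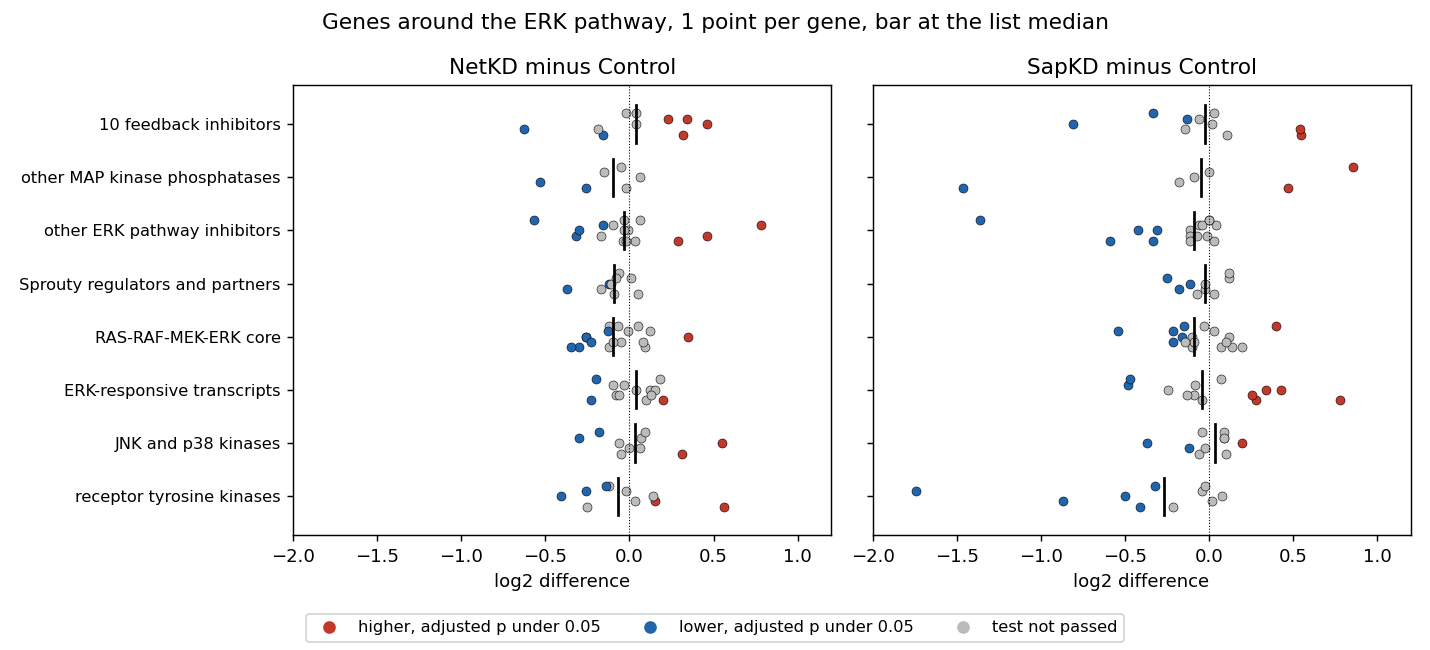
Differences from Control in log2 units for the 10 feedback inhibitors and 7 lists of other genes around the ERK pathway, NetKD on the left and SapKD on the right. Each point is a gene, coloured by its limma call, and the bar is the list median. The lowest points in SapKD are Pdgfra (-1.74), Dusp10 (-1.46) and Il17rd (-1.36).

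The genes with the profiles most like the 2 members that led a comparison were found by the root mean square difference, over the 9 arrays, of deviations from each gene's Control mean. Nearest to Spry1 were the innate immune receptor gene Tlr2 (0.07 log2 units, with differences of 0.5 in NetKD and -0.86 in SapKD), the transcription factor gene Klf12 (0.09, with 0.53 and -0.8) and the mineralocorticoid receptor gene Nr3c2 (0.1, with 0.49 and -0.8). Nearest to Dusp4 were the matrix metalloproteinase gene Mmp11 (0.15, with -0.62 in NetKD and 0.65 in SapKD), the adhesion gene Nectin1 (0.17, with -0.57 and 0.39) and the thyroid hormone receptor gene Thrb (0.17, with -0.54 and 0.59). Such nearness was sought among protein-coding genes, leaving out those with provisional names and olfactory and vomeronasal receptor genes. It is a description of these 9 arrays.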

How the data were processed

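Total RNA (0.1 ug per sample) was hybridised to 9 arrays, and the deposited table holds 1 log2 value per probe set and array. Per the submitters' processing notes, the authors obtained these log2 values by RMA (Affymetrix Expression Console), and the version and settings are not given in the sources used here. RMA compresses small folds of dim genes and removes a shift common to most genes. There are no detection calls and no read depth, so the number of arrays limits precision.

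Symbols came from the platform annotation, updated through Entrez IDs in a RefSeq table of GRCm38.p6 that held 21689 of the 21780 probe sets with 1 symbol (1605 had several, 5430 none), which gave 19935 genes. Listed genes found only on probe sets with several symbols or none were not analysed here. limma 3.58.1 in R 4.3.3 (lmFit, eBayes, a mean per group, 6 residual and 4.7 prior degrees of freedom) tested 3 comparisons, with Benjamini-Hochberg adjustment over all genes. The members and the 14 other lists were chosen with earlier results of these data known. Named were all members, the ternary complex factors and Srf, up to 3 called genes per list and comparison with the smallest adjusted p, and the 3 nearest profiles of each member that led a comparison. A gene so named is also given in the other comparison where that helps, and the arrays of Dusp10 and Il17rd are shown because of their values. Alternatives were a replicate block, other variance models, normalizations and probe set choices, a filter, a stricter threshold and each array left out. Same-numbered arrays of different groups correlated at -0.11 to 0.36 in their deviations from group means, so the numbers were not taken to pair samples.

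The fit was tested on simulated data with 19935 genes. In the simulated NetKD comparison it called 0% of 50 genes changed 1.1-fold, 36% of 50 changed 1.2-fold, 90% of 50 changed 1.5-fold and 100% of 50 changed 2-fold, with 6 false calls. Noise was normal, with each gene's own spread within groups. Only these genes were changed, far fewer than the 4714 called in the real NetKD comparison. The adjustment is stricter when few genes change, so these shares do not give the power of the real fit.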

Additional observations from a re-analysis of the deposited data

How the results depend on the processing

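Over 20 alternatives and the 3 comparisons, the differences of the 10 genes gave 600 values, of which 583 kept the direction of any call and its side of the threshold, 11 lost a call, 5 gained one and 1 reversed. The reversal was Spred2 in NetKD cells, at 0.03 (limma adjusted p = 0.77) as the mean of its 2 probe sets, which oppose each other. The calls lost were those of Spred2 in NetKD and of Dusp6 in SapKD cells, and the cause was not tested. The number of members lower in NetKD cells, 2 as reported, was 1 with arrays centred on their medians, with probe sets of 1 gene averaged and at an adjusted p under 0.01, and 1 to 2 with single arrays left out (1 without Control replicate 1, 2 or 3, or NetKD replicate 1 or 3, each through the loss of Spred2). It was 3 with array weights, with the neighbours' median subtracted and with dimmer genes left out, through the gain of Spred3. With single arrays left out the members higher in NetKD stayed at 4, those higher in SapKD at 2, those lower in SapKD ran from 2 to 3, and those between the knockdowns stayed at 4 and 3. With the replicate block the counts were 4 higher and 2 lower in NetKD, 2 and 3 in SapKD and 4 and 3 between the knockdowns, no member's call changed, and over all genes the calls moved to 4985, 6263 and 5752, against 4714, 5921 and 5480 without it. In the deviations 4 of 9 arrays correlated best with an array of their own number. Small differences of single genes, such as those of Spred1, Spred2 and Spred3, are near the limit of what 3 arrays a group can show.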
